A study of Mus musculus with 11 samples.

Results

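The voltage-gated sodium, calcium and HCN channels are described here across 11 CAGE libraries of mouse cerebral cortex. The genes were chosen by symbol alone: sodium channel genes (Scn followed by a number and a or b), the calcium channel families Cacna1, Cacna2d, Cacnb and Cacng, and the Hcn genes, each with a mean of at least 0.5 CPM, the tags of a gene scaled to the total of its library, over the 11 libraries. This gave 38 of the 22377 genes of the table, and 1 further gene that fits the symbols, Cacna1s, lay below the limit. All 38 were among the 17556 genes that passed the same limit and entered the tests.

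Sodium channels carry the rising phase of the action potential; their pore is a large alpha subunit (such as Scn1a), and small beta subunits (such as Scn2b) set its gating and its place in the membrane. Voltage-gated calcium channels turn depolarization into calcium entry, for transmitter release at terminals and for signalling to the nucleus in the cell body. Their pore subunits (Cacna1) travel and gate with alpha2delta (Cacna2d) and cytoplasmic beta (Cacnb) subunits, while most Cacng genes expressed in cortex encode TARPs, which escort AMPA-type glutamate receptors. HCN channels open on hyperpolarization and set resting potential and dendritic integration. Several of these genes are known epilepsy genes, and several of the proteins are targets of anti-seizure drugs, while levetiracetam binds the vesicle protein SV2A and is not classed as a sodium channel blocker.

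The study made a photothrombotic stroke, in which light on an injected dye, rose bengal, clots vessels of the left parietal cortex of male C57BL/6N mice, and treated some with levetiracetam (LEV), an anti-seizure drug, in drinking water. Each group is 1 library of RNA from whole cerebral cortex. For each of 5 states there is an infarcted and a non-infarcted library: 7 d after stroke, 7 d with LEV, 1 m, 1 m with LEV, and 2 m with 2 weeks of LEV withdrawal. The last group is 1 naive, untreated cortex. CAGE (cap analysis of gene expression) counts 1 tag at the 5′ end of a capped RNA, so a level in CPM is not divided by gene length and can be set beside that of another gene. The design text gives ages of 8 to 10 and 65 to 85 weeks, LEV from 1 m for 2 weeks and 1 week of withdrawal. It also mentions EEG screw electrodes in the cortex and low doses of the convulsant pentylenetetrazol. The labels, which place LEV at 7 d as well, were followed, and they give neither the age, the electrodes or convulsant, nor the number of mice behind a library.

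The libraries hold 12928291 to 21000367 tags, so 3 tags are worth 0.143 to 0.232 CPM. Cortical excitatory neuron markers sum to 3357 to 5053 CPM on the infarcted side, 4269 to 5669 CPM on the non-infarcted side and 4562 CPM in naive cortex, with none of the 10 at 0 in any library. The non-infarcted 2 m library stands apart: 92.3% of its tags lie in genes, against 94.2% to 97.3% in the others, and 345 of 17556 genes (1.97%) are lowest there by at least 1.5-fold, more than in any other library. Scn2b and Cacng8 are among them. The 1 m and naive libraries also stand apart from those of 7 d and 2 m. In 1803 genes (10.3%) their ranges do not overlap; Stxbp3, a non-channel gene chosen after its values were seen, had 17.9 to 22.3 CPM in the 5 libraries of 1 m and naive cortex and 2.82 to 6.73 CPM in the 6 of 7 d and 2 m.

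The 38 genes lie on 14 chromosomes. Scn1a, Scn2a, Scn3a, Scn7a and Scn9a share a cluster on chromosome 2, Scn2b and Scn4b are neighbours on chromosome 9, and Cacng6, Cacng7 and Cacng8 are neighbours on chromosome 7. None of the 38 matched a gene nearby (up to 5 kb away) to within 5% in tag number throughout the libraries, but 3 overlap another listed gene on the same strand (Cacnb2 with 2900092N22Rik, Cacng7 with Gm44256, Cacng8 with Gm23450), where tags could be assigned to either. Summed together, the 38 genes gave 1974, 2282, 2268, 2578 and 2680.0 CPM for the infarcted libraries of 7 d, 7 d LEV, 1 m, 1 m LEV and 2 m, 2513, 2658, 2622, 2690.1 and 2402 CPM for the non-infarcted ones in the same order, and 2561 CPM in naive cortex. All values of a side below follow this order of states. The 7 d infarcted library has the lowest sum, and the sides overlap.

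Among the pore-forming sodium channels, which sum to a mean of 344 CPM, Scn8a (Nav1.6, the main channel of the mature axon initial segment) was highest. It had 108, 119, 130.5, 136 and 123 CPM on the infarcted side, 138, 162, 149.7, 159 and 131 CPM on the non-infarcted side and 151 CPM in naive cortex. Scn1a (Nav1.1, the channel of fast-spiking interneurons) averaged 97.5 CPM over the 11 libraries and Scn2a (Nav1.2, of excitatory neurons) 81.0 CPM, while Scn3a, the embryonic brain channel, averaged 18.1 CPM. Scn7a, a sodium-sensing channel, and Scn9a, of peripheral sensory neurons, averaged 4.75 and 2.17 CPM. Scn8a was above Scn1a in each of the 11 libraries and Scn1a above Scn2a in all but the 1 m infarcted one, although the ranges of neighbours in this order overlap.

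Of the beta subunit genes, Scn2b averaged 104 CPM, Scn4b 71.2 CPM and Scn3b 66.7 CPM, with overlapping ranges.

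The calcium pore genes sum to 506 CPM. Cacna1e, of the R-type current, led with 162, 181, 162, 156 and 202 CPM on the infarcted side, 192, 204, 157, 143 and 166 CPM on the non-infarcted side and 169 CPM in naive cortex. Cacna1a (P/Q-type, the main release channel) followed at a mean of 106 CPM and Cacna1b (N-type, also at terminals) at 65.5 CPM. The L-type pair Cacna1c and Cacna1d, which signal to the nucleus, averaged 55.1 and 31.8 CPM, and the low-threshold T-type genes Cacna1i, Cacna1g and Cacna1h averaged 37.2, 20.8 and 17.9 CPM. Cacna1d had the widest span of the 8, with the highest library at 4.47 times the lowest, against 1.29 times in Cacna1c.

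Among auxiliary calcium subunits, Cacna2d1, which encodes a protein bound by gabapentin, had 77.4, 100.1, 92.0, 103 and 112 CPM on the infarcted side, 106, 112, 98.3, 100.5 and 104 CPM on the non-infarcted side and 99.2 CPM in naive cortex. Cacna2d3 averaged 95.9 CPM, Cacna2d2 12.8 CPM and Cacna2d4, best known from retina, 2.07 CPM. Of the beta subunits, Cacnb4 led with 113, 131, 115, 127 and 165 CPM on the infarcted side, 164, 156, 127, 151 and 144 CPM on the non-infarcted side and 144 CPM in naive cortex. Cacnb3, Cacnb1 and Cacnb2 averaged 107, 106 and 51.5 CPM, so that Cacnb1, the subunit best known from skeletal muscle, is expressed at a level like that of Cacnb3 in this tissue.

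The TARP gene Cacng2 (stargazin) was the highest Cacng gene, with 49.0, 53.6, 61.8, 66.1 and 57.3 CPM on the infarcted side, 70.8, 66.9, 72.1, 75.4 and 66.8 CPM on the non-infarcted side and 81.4 CPM in naive cortex. The other TARP genes Cacng7, Cacng3, Cacng8, Cacng4 and Cacng5 averaged 63.6, 58.5, 41.7, 16.6 and 9.25 CPM. Cacng6, a relative of the muscle gamma subunit, averaged 2.04 CPM. Of the HCN genes, Hcn2 averaged 43.3 CPM, Hcn3 8.82 CPM and Hcn4, the pacemaker subunit of the heart, 3.27 CPM.

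**Figure D1:**
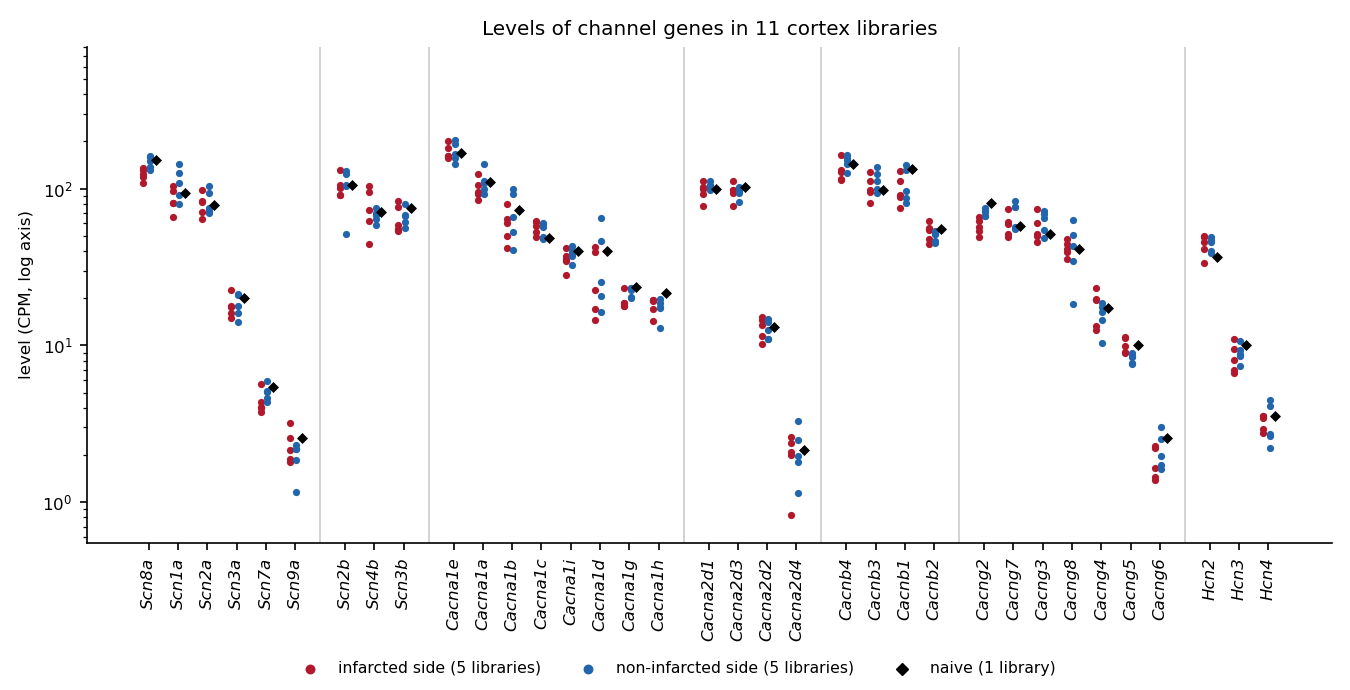
Levels of channel genes in CPM on a log axis, grouped by family, with 1 point per library: 5 infarcted (red), 5 non-infarcted (blue) and 1 naive (black diamond). Cacna1e lies at 143 to 204 CPM over the libraries and Cacna2d4 at 0.833 to 3.28 CPM, and of the genes drawn the sides overlap in all but Cacng2 and Cacng5.

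To show what lies before the starts of genes the comparisons turn on, the 250 bases before a start were read from RefSeq (GRCm38.p6), which holds 38 such entries for 27 of the 38 genes. The 3 calcium channel genes that rose at 1 m on both sides are given with Scn8a, which was lower on the infarcted side; the table of CPM is per gene, so which start the tags came from is not known here. Capitals mark a GC box (GGGCGG, or CCGCCC on the other strand) or an EGR site (GCGGGGGCG or its complement), which can overlap. The Cacna1b stretch (chr2:24763153-24763402, minus strand) lies directly before the 5′ end of the gene in GENCODE. The Cacnb1 stretch (chr11:98022628-98022877, minus strand), the Scn8a stretch (chr15:100870395-100870644, plus strand) and the Cacna1d stretch (chr14:30353487-30353736, minus strand) lie within the annotated gene, before starts downstream of its 5′ end.
Cacna1d: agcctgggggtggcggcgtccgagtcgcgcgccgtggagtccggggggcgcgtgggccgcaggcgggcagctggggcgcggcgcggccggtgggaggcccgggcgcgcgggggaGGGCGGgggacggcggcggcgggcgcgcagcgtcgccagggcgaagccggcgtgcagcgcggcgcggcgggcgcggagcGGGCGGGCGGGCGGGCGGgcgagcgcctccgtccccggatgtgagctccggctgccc
Cacna1b: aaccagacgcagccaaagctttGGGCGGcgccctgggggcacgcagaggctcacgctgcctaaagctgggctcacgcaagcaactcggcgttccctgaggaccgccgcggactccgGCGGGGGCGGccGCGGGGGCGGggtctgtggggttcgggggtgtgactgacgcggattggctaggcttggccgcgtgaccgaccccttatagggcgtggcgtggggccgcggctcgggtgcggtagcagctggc
Cacnb1: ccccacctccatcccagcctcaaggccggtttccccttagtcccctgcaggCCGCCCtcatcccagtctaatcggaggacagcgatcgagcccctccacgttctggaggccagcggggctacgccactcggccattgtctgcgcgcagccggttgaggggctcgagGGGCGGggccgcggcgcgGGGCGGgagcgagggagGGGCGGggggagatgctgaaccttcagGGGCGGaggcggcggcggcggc
Scn8a: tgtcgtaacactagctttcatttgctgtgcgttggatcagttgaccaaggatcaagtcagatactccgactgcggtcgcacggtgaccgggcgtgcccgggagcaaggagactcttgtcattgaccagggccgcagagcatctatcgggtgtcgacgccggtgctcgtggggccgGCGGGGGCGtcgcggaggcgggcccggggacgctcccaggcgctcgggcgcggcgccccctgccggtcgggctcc
The Cacna1d stretch is 86.4% G or C with 5 GC boxes counted with overlap, the Cacnb1 stretch 73.2% with 5, the Cacna1b stretch 72.0% with 3, and the Scn8a stretch 68.0% with none. The Cacna1b stretch holds 2 EGR sites, that of Scn8a 1, and those of Cacna1d and Cacnb1 none. RefSeq holds a second entry for 3 of these genes, not printed here, with no GC box or EGR site: that of Cacna1d (chr14:30491157-30491406, nearer the 5′ end of the gene) is 39.6% G or C and has 3 TATA boxes, that of Cacnb1 (chr11:98018373-98018622) 56.0% and that of Scn8a (chr15:100936021-100936270) 53.2%. The printed stretches are thus the more GC-rich of each pair. Both strands were searched in all 32851 promoters of the table. A GC box was in 15 of the 38 channel entries (39.5%) and in 32.7% of all promoters, and an EGR site in 5 of the 38 entries (13.2%) and in 2.57% of all. The E-box CACGTG and the cAMP response element TGACGTCA were in 0 of the 38 entries, against 6.02% and 1.55% of all promoters. TATAAA was in 2 of the 38 entries and in 12.4% of all promoters, and the core of the RE1 silencer element in 0 of the 38 and 0.0335% of all. These are matches of letters only, and base composition was not allowed for. The 38 entries had a median of 57.4% G or C, against 52.4% over all promoters.

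The first comparison asks how channel gene levels differ between the infarcted and the non-infarcted side. Of the 38 genes, 2 were lower on the infarcted side and none was higher: Cacng2 and Scn8a, at an adjusted p below 0.05 in limma over all 17556 genes, with the 5 states as repeats. Among all genes 6.88% were called, 0.729% lower and 6.15% higher. Scn1a was close to that threshold and missed it. The differences were small, at most 0.34 on the log2 scale among these 3, where 1 means a doubling of CPM plus 1.

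The 5 infarcted values of Cacng2, on chromosome 15 (GRCm38 77991748 to 78120028, minus strand), listed above, all lie below the 5 non-infarcted ones, and all 10 lie below naive cortex. Complete separation in this direction was seen in 76 of 17556 genes (0.433%). The log2 difference of infarcted over non-infarcted was −0.29 (standard error 0.067, adjusted p = 0.0338). For Scn8a (chromosome 15, 100869858 to 101045938, plus strand) it was −0.26 (SE 0.065, adjusted p = 0.0458), with the infarcted library lower in 5 of 5 states but ranges that overlap. The call of Scn8a was lost with no CPM limit (adjusted p = 0.0634) and at a mean of at least 5 CPM (0.0562), where that of Cacng2 was not, and both were lost without the state factor (0.249 for Scn8a and 0.175 for Cacng2).

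Scn1a had 80.6, 96.6, 81.1, 65.8 and 105 CPM on the infarcted side, 126, 144, 91.3, 80.05 and 108 CPM on the non-infarcted side and 93.2 CPM in naive cortex. The gap between the sides was widest at 7 d with and without LEV and nearly closed at 2 m. Its log2 difference was −0.34 (SE 0.092, adjusted p = 0.0569), and it was lower in 5 of 5 states. The related pore genes Scn2a and Scn3a had −0.05 and −0.01. Cacng5, another TARP gene, had 9.10, 9.85, 11.2, 8.95 and 11.3 CPM on the infarcted side, 7.67, 7.60, 8.93, 8.62 and 8.38 CPM on the non-infarcted side and 10.1 CPM in naive cortex. Here all 5 infarcted values are above all 5 non-infarcted ones, as in 3.28% of genes, and the log2 difference was 0.26 (SE 0.089, adjusted p = 0.121), not called.

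**Figure D2:**
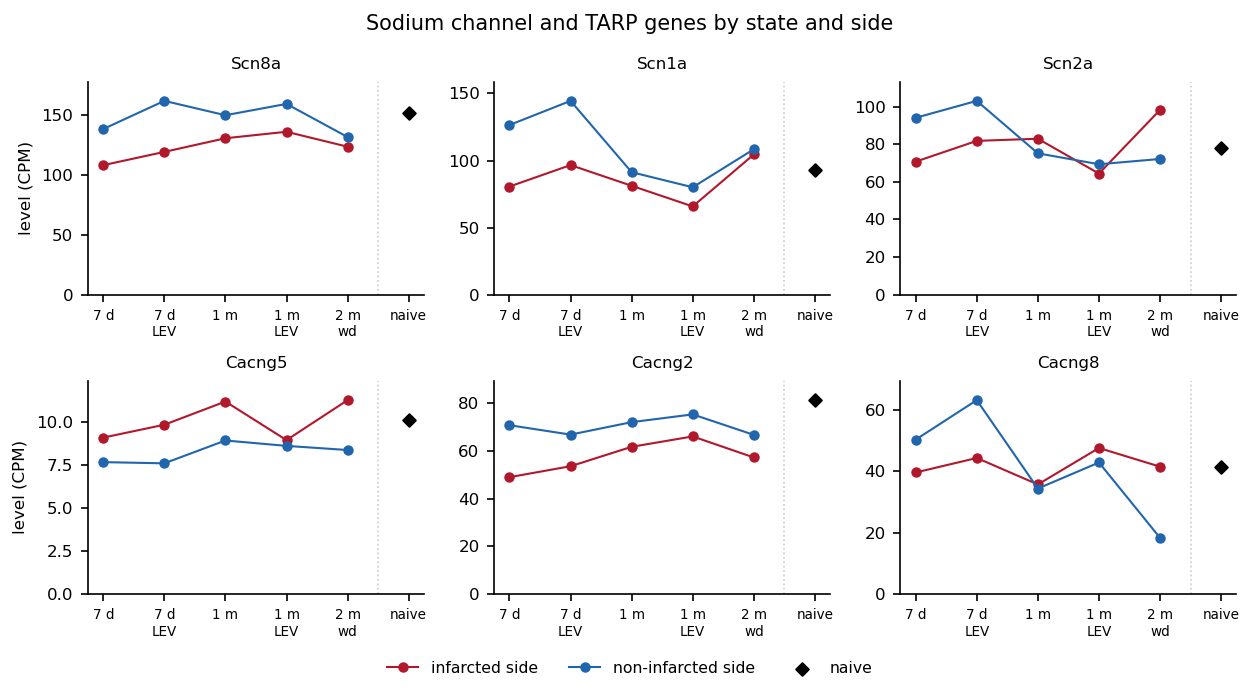
Levels in CPM of 6 genes by state (7 d, 7 d LEV, 1 m, 1 m LEV, 2 m after withdrawal, marked wd) for the infarcted side (red) and the non-infarcted side (blue), with the 1 naive library as a diamond; lines join states that are separate libraries. Scn8a, Scn1a and Cacng2 are lower on the infarcted side in 5 of 5 states and Cacng5 is higher, while Scn2a and Cacng8 cross.

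Across the whole set, 6 of the 38 genes were lower on the infarcted side in every state and 1 was higher, against 7.44% and 14.6% of all genes. The 38 side differences had a median log2 of −0.08, and all genes 0.02. The states differ in this: 32 of 38 were lower on the infarcted side at 7 d, 30 at 7 d LEV, 25 at 1 m, 19 at 1 m LEV and 9 at 2 m, where 55.2%, 46.6%, 41.2%, 49.2% and 41.0% of all genes were lower. The medians of the 38 genes were −0.29, −0.16, −0.11, 0.00 and 0.15. At 2 m, Scn2b and Cacng8 stood 1.34 and 1.14 higher on the infarcted side on the log2 scale, and these are the genes lowest in the non-infarcted 2 m library by over 1.5-fold. Without the 2 m state, 6 genes were called lower, Scn8a, Scn1a, Cacng2 and Cacnb4 among them. That fit called 7.42% of all genes. Leaving out the 7 d, the 7 d LEV, the 1 m or the 1 m LEV state instead gave 0 of the 38, where 0.524%, 1.3%, 0.433% and 6.98% of all genes were called.

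Other neuronal genes were examined beside them. Of 33 voltage-gated potassium channel genes and their subunits, 4 were lower on the infarcted side (Kcnc1 and Kcnc2, of fast-spiking cells, and Kcnh1 and Kcnh7) and none was higher, with a median of −0.15. None of 10 inhibitory neuron markers was called, with a median of −0.14, nor any of 10 excitatory ones, with −0.16. Of 36 partner genes, such as ankyrins, calmodulins and FGF homologous factors, only the calcium channel regulator Cabp1 was called, at −0.43 (adjusted p = 0.0188). None of 10 general neuron markers was called, and their median was −0.18. Their medians by state were −0.42, −0.40, −0.11, −0.14 and 0.27, next to those of the channel genes above. The 10 neuron markers sum to 4931 to 6398 CPM on the infarcted side, 5566 to 7525 CPM on the non-infarcted side and 5946 CPM in naive cortex, with none at 0 in any library. Of 14 microglia and macrophage markers 13 were called higher on the infarcted side; they sum to 857 to 3291 CPM there, 335 to 448 CPM on the other side and 358 CPM in naive cortex, with none at 0 in any library. Also called higher on the infarcted side were 7 of 10 oligodendrocyte, 7 of 10 fibroblast and meningeal and 4 of 10 astrocyte markers. So were 4 of 10 oligodendrocyte precursor, 2 of 12 endothelial and mural and 3 of the 8 thalamus markers tested. No marker of these lists was called lower. The part of these cells and tissues in the channel gene differences was not tested. In whole tissue fewer neurons and less RNA per neuron cannot be told apart.

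**Figure D3:**
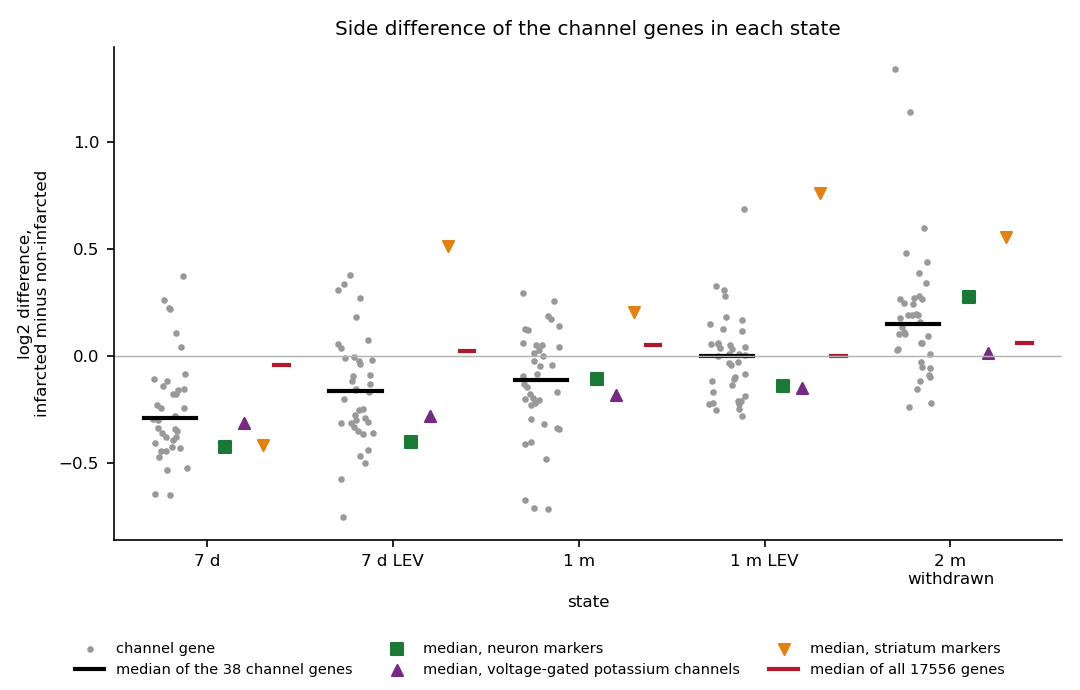
Log2 difference of infarcted minus non-infarcted CPM in each state, with 1 grey point per channel gene, a black bar at their median, coloured symbols at the medians of neuron markers, potassium channels and striatum markers, and a red bar at the median of all 17556 genes. The channel median is −0.29 at 7 d and 0.15 at 2 m, and the neuron markers run beside it at −0.42 and 0.27.

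Set against the 1 naive library, none of the 38 genes was called on either side. Over all genes 0.0057% were called on the infarcted side and 0% on the non-infarcted side, so these tests call almost nothing. At an unadjusted p below 0.05 there was 1 channel gene on the infarcted side and 0 on the other, and edgeR called 0 and 0. The lone naive library is taken to vary like the 5 others. The smallest p on the infarcted side belonged to Cacng2 (−0.50, SE 0.19, adjusted p = 1.0), and Cacnb1 (−0.46) and Scn8a (−0.30) were among the next, all below naive cortex in 5 of 5 states. For Cacnb1 the states were uneven, with −0.83, −0.59 and −0.55 at 7 d, 7 d LEV and 2 m. At 1 m and 1 m LEV, the libraries that lie with naive cortex in the split above, it had −0.27 and −0.05.

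Among the smallest p on the non-infarcted side were those of Cacna1h (log2 difference −0.33), Hcn2 (0.26) and Cacng5 (−0.27), each with adjusted p = 1.0. Cacna1h had 14.2, 17.04, 19.2, 19.4 and 19.4 CPM on the infarcted side, 17.7, 12.9, 19.8, 18.6 and 17.3 CPM on the non-infarcted side and 21.7 CPM in naive cortex, the highest of the 11. Hcn2 had 41.3, 45.9, 33.7, 49.7 and 48.8 CPM on the infarcted side, 45.6, 46.7, 39.0, 49.3 and 40.2 CPM on the non-infarcted side and 36.5 CPM in naive cortex, so that all 5 non-infarcted libraries lie above the naive one. It was the only 1 of the 38 genes to do so, as 8.97% of all genes did, and 6 genes lay below the naive one in all 5, as 11.1% did; on the infarcted side 1 lay above and 8 below, where 18.1% and 12.4% of all genes did. The median over the 38 genes was −0.12 on the infarcted side and −0.09 on the non-infarcted side, against 0.03 and 0.00 over all genes.

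Between 1 m and 7 d, the calcium channel genes called on both sides were Cacna1d, Cacna1b and Cacnb1, all higher at 1 m. Of the 38 genes, 7 were higher at 1 m and none was lower on the infarcted side (limma, adjusted p below 0.05), among them Cacna1d, Cacna1b, Cacnb1, Scn3b, Cacng4 and Scn4b. Of all genes, 4.7% were higher and 10.4% lower. On the non-infarcted side 4 genes, including Cacna1d, Cacna1b and Cacnb1, were higher at 1 m, and Scn1a and Cacng8 were lower; the background there was 5.13% higher and 5.09% lower. These tests rest on 2 pairs per side (LEV and untreated) with 1 residual degree of freedom, so their spread comes mostly from other genes. In both infarcted pairs 23 of the 38 genes were higher at 1 m and 2 were lower, against 30.4% and 38.4% of all genes. In both non-infarcted pairs 14 were higher and 15 lower, against 26.5% and 40.7%.

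Cacna1d (chromosome 14, 30039939 to 30491455, minus strand) encodes Cav1.3, an L-type channel that opens at low voltages. It had 14.5, 16.98, 39.3, 42.4 and 22.6 CPM on the infarcted side, 16.3, 20.8, 65.0, 46.7 and 25.2 CPM on the non-infarcted side and 39.8 CPM in naive cortex. Every 1 m library and naive cortex lie above every 7 d and 2 m library. The log2 difference of 1 m over 7 d was 1.32 (SE 0.16, adjusted p = 7.24e-08) on the infarcted side and 1.53 (SE 0.18, adjusted p = 0.000275) on the non-infarcted side, the largest of the 38 on each.

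Cacna1b, the N-type pore gene on chromosome 2 (24603887 to 24763152, minus strand), had 41.9, 49.5, 60.5, 79.8 and 64.2 CPM on the infarcted side, 40.6, 52.7, 99.9, 92.4 and 65.4 CPM on the non-infarcted side and 73.3 CPM in naive cortex. The 4 libraries of 1 m on either side lie above the 4 of 7 d. Its log2 differences were 0.60 (SE 0.14, adjusted p = 0.00251) on the infarcted side and 1.04 (SE 0.15, adjusted p = 0.000955) on the non-infarcted side. Cacnb1 had 74.8, 88.4, 111, 129.6 and 91.1 CPM on the infarcted side, 81.1, 96.9, 141, 132 and 87.2 CPM on the non-infarcted side and 134 CPM in naive cortex. It too separates 1 m and naive cortex from 7 d and 2 m, with 0.56 (SE 0.14, adjusted p = 0.00328) on the infarcted and 0.62 (SE 0.14, adjusted p = 0.0155) on the non-infarcted side.

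Scn3b, a beta subunit, had 53.6, 55.3, 76.3, 83.6 and 58.4 CPM on the infarcted side, 60.8, 68.2, 66.8, 80.05 and 55.9 CPM on the non-infarcted side and 74.7 CPM in naive cortex. It rose on the infarcted side (0.54, SE 0.14, adjusted p = 0.00518). Cacng4, a TARP gene, had 12.5, 13.3, 19.5, 19.8 and 23.2 CPM on the infarcted side, 10.3, 14.5, 18.7, 17.5 and 16.3 CPM on the non-infarcted side and 17.3 CPM in naive cortex. It rose on the infarcted side (0.57, SE 0.18, adjusted p = 0.0239), and was 0.53 with adjusted p = 0.0714 on the non-infarcted side.

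Both genes that fell did so on the non-infarcted side. There Scn1a had 91.3 and 80.05 CPM at 1 m without and with LEV, against 126 and 144 CPM at 7 d, a log2 difference of −0.66 (SE 0.14, adjusted p = 0.0118). On the infarcted side it was −0.27 (SE 0.14, adjusted p = 0.231), not called. Cacng8, a TARP gene of hippocampus and cortex, had 39.6, 44.3, 35.7, 47.6 and 41.5 CPM on the infarcted side, 50.3, 63.2, 34.4, 42.9 and 18.3 CPM on the non-infarcted side and 41.2 CPM in naive cortex. Its change was −0.54 (SE 0.14, adjusted p = 0.0236) on the non-infarcted side. With TMM scaling Scn1a had an adjusted p of 0.0521 and Cacng8 of 0.0663, and edgeR gave Cacng8 0.0608.

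**Figure D4:**
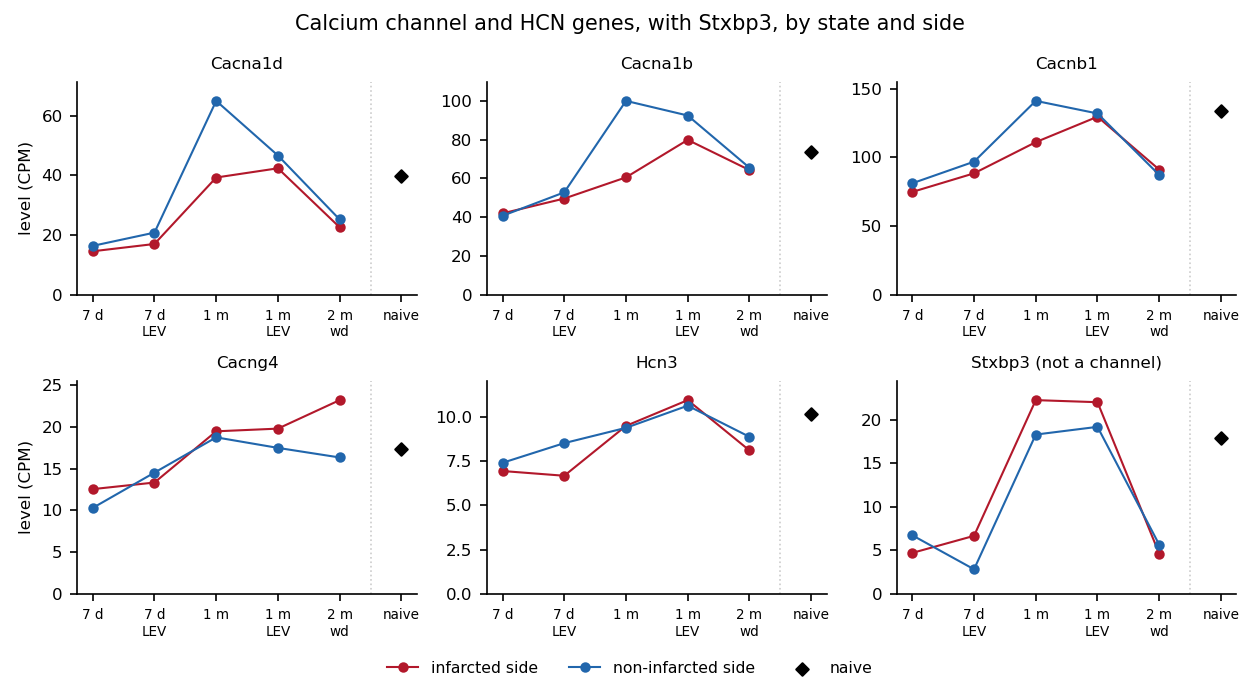
Levels in CPM of 5 channel genes and of Stxbp3, a non-channel gene, by state for the infarcted side (red), the non-infarcted side (blue) and naive cortex (diamond); lines join separate libraries. Cacna1d, Cacnb1, Hcn3 and Stxbp3 are higher in the 5 libraries of 1 m and naive cortex than in the 6 of 7 d and 2 m.

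The pattern of Cacna1d, Cacnb1 and Hcn3 over the states coincides with a split of libraries that is seen far beyond channel genes. These 3 of 38 genes were higher in all 5 libraries of 1 m and naive cortex than in all 6 of 7 d and 2 m, and none was lower in all; among all genes 3.7% were higher in this way and 6.57% lower. Atp5e, a subunit of ATP synthase picked after its values were seen, had 584 to 925 CPM in the 5 libraries and 219 to 345 CPM in the 6. The labels give no batch that could be compared with this split, and its part in these results was not tested. Cacna1b departs from it only through the 1 m infarcted library, at 60.5 CPM, against 64.2 and 65.4 CPM at 2 m. Naive cortex and the remaining 1 m libraries had 73.3 to 99.9 CPM, above the 40.6 to 65.4 CPM of the 7 d and 2 m libraries.

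Genes around the channels also changed over time. Of the 33 potassium channel genes, 6 were higher at 1 m on the infarcted side (Kcnq3, Kcna3, Kcna4 and Kcnh3 among them), and 4 were higher and Kcnab2 lower on the non-infarcted side. Kcnq3 encodes a subunit of the M-current channel, a brake on repetitive firing, and rose by 0.50 on the infarcted and 0.70 on the non-infarcted side on the log2 scale. Of the 36 partner genes, 3 were higher on the infarcted side, and 1 was higher and 6 were lower on the non-infarcted side. Stac2, which binds L-type calcium channels, rose on both sides (0.51 and 0.88), and Ank3, the ankyrin that anchors sodium channels at the axon initial segment, fell on the non-infarcted side (−0.64, adjusted p = 0.00945). The median change of the 38 channel genes was 0.13 on the infarcted and 0.02 on the non-infarcted side, against −0.03 and −0.06 over all genes. Over the same time 12 of 14 microglia markers fell and 2 of 10 neuron markers rose on the infarcted side, as did 5 of 10 inhibitory neuron markers (Gad1, Gad2, Vip, Reln and Cnr1); the part of cell composition was not tested.

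Whether the change over time differs between the sides was tested on the side differences themselves. None of the 38 genes was called, nor were more than 0.0057% of all genes; 9 of the 38 had an unadjusted p below 0.05, as had 12.7% of all genes. In both pairs the side difference was higher at 1 m in 18 of the 38 genes and lower in 3, as it was in 32.6% and 27.7% of all genes. The smallest p belonged to Scn4b (0.66, SE 0.16, adjusted p = 0.135), Hcn4 (−0.59, SE 0.16, adjusted p = 0.170), Scn3a (0.54, SE 0.16, adjusted p = 0.197) and Cacng8 (0.52, SE 0.16, adjusted p = 0.208). Hcn4 had 2.77, 3.53, 2.94, 3.54 and 3.42 CPM on the infarcted side, 2.22, 2.66, 4.503, 4.10 and 2.73 CPM on the non-infarcted side and 3.56 CPM in naive cortex. Scn3a had 14.9, 16.0, 17.6, 17.9 and 22.6 CPM on the infarcted side, 21.1, 17.97, 16.1, 14.05 and 20.9 CPM on the non-infarcted side and 20.0 CPM in naive cortex. With genes below a mean of 5 CPM left out, Scn4b, Scn3a and Cacng8 were called, in a fit that called 2.53% of the 12788 genes tested. In that fit the spread was taken wholly from other genes, so the spread of each gene itself had no weight.

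LEV was compared with no LEV at 7 d and at 1 m on each side. On the infarcted side 1 of the 38 genes, Scn4b, was higher with LEV and none was lower; 0.33% of all genes were called, 0.0627% higher. On the non-infarcted side no channel gene was called, nor any other gene (0%), with 1 channel gene at an unadjusted p below 0.05 and 0 in edgeR. Whether called or not, 27 of the 38 genes were higher with LEV in both infarcted pairs and none was lower in both, where 31.5% and 22.5% of all genes were. The median of the 38 genes was 0.17 on the infarcted and 0.04 on the non-infarcted side, against 0.02 and 0.00 over all genes. In the same infarcted comparison the median was 0.17 over 10 excitatory neuron markers, 0.18 over 10 inhibitory neuron markers, of which Cnr1 was called higher, and 0.15 over the 33 potassium channel genes, of which none was called. Over the 10 general neuron markers it was 0.07 and over the 36 partner genes 0.10, with none called. It was −0.43 over 10 fibroblast and meningeal markers (Col1a1 and Col3a1 called lower), −0.42 over 12 endothelial and mural markers (Acta2 called lower) and −0.14 over 14 microglia and macrophage markers (Lyz2 and Lgals3 called lower). In the 7 d pair 3 of 38 channel genes, 2 of 10 general neuron markers and 3 of 36 partner genes were lower with LEV. In the 1 m pair 8, 6 and 18 of them were. Of all genes 36.6% were lower at 7 d and 54.3% at 1 m. Summed, the microglia and macrophage markers had 2870 CPM with LEV, against 3291 CPM without, at 7 d, and 864 CPM with LEV, against 1314 CPM without, at 1 m. The endothelial and mural markers had 314 CPM with LEV, against 353 CPM without, at 7 d, and 221 CPM with LEV, against 332 CPM without, at 1 m. For the fibroblast and meningeal markers the sums were 4783 CPM with LEV, against 5703 CPM without, at 7 d, and 3900 CPM with LEV, against 3686 CPM without, at 1 m. This sum was lower with LEV at 7 d but not at 1 m, while most of its genes went the other way. Their median log2 difference was 0.02 at 7 d, with 4 of 10 lower, and −0.79 at 1 m, with 9 of 10 lower. No marker of these 3 lists was at 0 in any library. The part of these cells in the shift of the channel genes was not tested.

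Scn4b (chromosome 9, 45138395 to 45154152, plus strand) encodes the beta4 subunit, whose cytoplasmic tail is linked to resurgent sodium current and which is strongly expressed in striatum. On the infarcted side it had 73.0 CPM with LEV, against 44.2 CPM without, at 7 d, and 94.9 CPM with LEV, against 62.0 CPM without, at 1 m. After withdrawal at 2 m it had 103 CPM there. The non-infarcted side had 69.9, 74.9, 64.1, 58.5 and 67.9 CPM and naive cortex 70.5 CPM, a narrower range than the infarcted side. The log2 difference of LEV over untreated was 0.66 (SE 0.14, adjusted p = 0.0194) on the infarcted side, and −0.01 (SE 0.14, adjusted p = 0.999) on the non-infarcted side. The test of the difference between the sides gave 0.67 (SE 0.16, adjusted p = 0.498), so the response was not shown to be limited to the infarcted side. The call on the infarcted side was lost with edgeR (adjusted p = 0.0894), TMM scaling (0.229) and median centring (0.105).

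Markers of the striatum were examined beside Scn4b. Summed over 10 of them, the infarcted side had 626, 912, 952, 1090.1 and 1139.8 CPM, the non-infarcted side 833, 709, 826, 670.4 and 788 CPM and naive cortex 883 CPM, with none at 0 in any library. As with Scn4b, the LEV library is the higher of each infarcted pair and the 2 m library the highest of that side, while on the non-infarcted side the order of the libraries differs between the marker sum and Scn4b. Of the 10, only Drd2, the dopamine D2 receptor gene of striatal projection neurons, was called higher with LEV on the infarcted side (0.99, adjusted p = 0.00292). It had 15.8 CPM with LEV, against 7.72 CPM without, at 7 d, and 30.8 CPM with LEV, against 14.5 CPM without, at 1 m. The median of the 10 for LEV was 0.38 on the infarcted side, with 10 higher at 7 d and 9 at 1 m. On the non-infarcted side it was −0.35, with 8 lower at 7 d, 9 lower at 1 m and none called. Of the 10 striatum markers, 8 were higher at 1 m than at 7 d on the infarcted side, where Scn4b was too (0.43, SE 0.14, adjusted p = 0.0320). That call of Scn4b was lost with no CPM limit (adjusted p = 0.223), without the second factor (0.295) and in 1 fit over both sides (0.707). The share of striatal tissue in each library was not tested for its part in Scn4b.

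**Figure D5:**
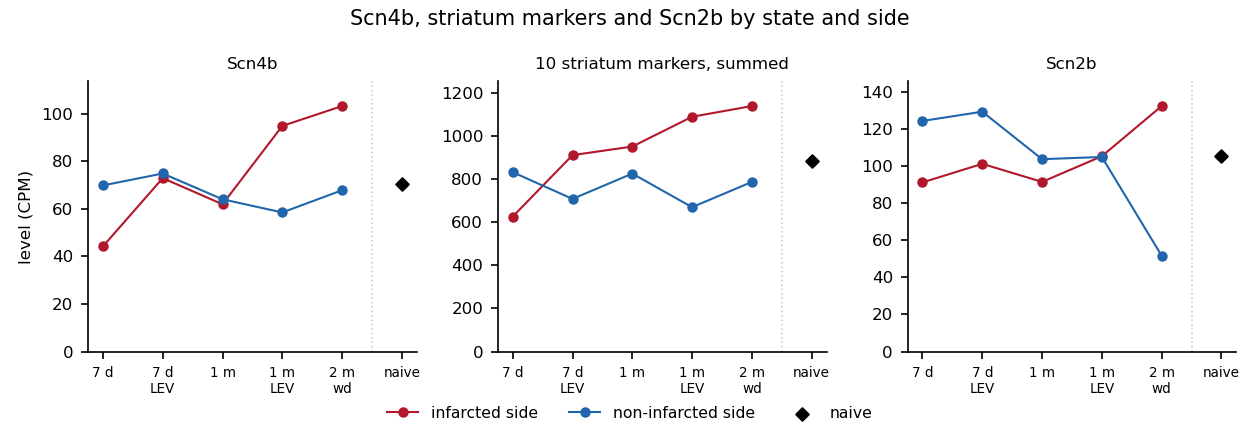
Levels in CPM of Scn4b, of 10 striatum markers summed and of Scn2b by state, for the infarcted side (red), the non-infarcted side (blue) and naive cortex (diamond); lines join separate libraries. Scn4b and the striatum sum are both lowest in the 7 d infarcted library (44.2 and 626 CPM) and highest in the 2 m infarcted library (103 and 1140 CPM), and Scn2b is lowest in the 2 m non-infarcted library (51.6 CPM).

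After Scn4b, the smallest p-values for LEV on the infarcted side included those of Cacng7 (0.39, SE 0.14, adjusted p = 0.366) and Hcn2 (0.35, SE 0.15, adjusted p = 0.507). Cacng7, a TARP gene, had 48.9, 59.0, 51.6, 73.8 and 61.3 CPM on the infarcted side, 55.4, 76.0, 82.9, 76.0 and 57.1 CPM on the non-infarcted side and 57.6 CPM in naive cortex. The LEV library was the higher of each infarcted pair in both genes, neither of which passed the test. On the non-infarcted side the smallest p-values were those of Cacng8 (0.32, SE 0.14, adjusted p = 0.997), Cacng6 (0.41, SE 0.20, adjusted p = 0.997), Cacna2d4 (−0.32, SE 0.20, adjusted p = 0.997) and Cacna1h (−0.26, SE 0.16, adjusted p = 0.997). Cacng6 had 1.45, 1.39, 2.23, 2.29 and 1.65 CPM on the infarcted side, 1.72, 3.03, 1.96, 2.52 and 1.64 CPM on the non-infarcted side and 2.55 CPM in naive cortex. In the test of the difference between sides, 3 of the 38 genes had an unadjusted p below 0.05 (Scn4b, Cacng6 and Cacna1h), as had 4.5% of all genes, and none was called, nor any other gene (0%). Cacna2d2, next in p at 0.34 (SE 0.16, adjusted p = 1.000), had 10.2, 15.1, 11.6, 13.5 and 14.4 CPM on the infarcted side, 14.01, 14.7, 11.04, 10.95 and 12.6 CPM on the non-infarcted side and 13.1 CPM in naive cortex.

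The 2 m libraries, taken 2 weeks after LEV was withdrawn, can be set only against the 1 m LEV library of the same side. Time, withdrawal and the split of libraries described above cannot be told apart here. In that split 1 m lies with naive cortex and 2 m with 7 d, and Cacna1d, Cacnb1 and Hcn3 follow it. There is no replicate check: the intervals are exact 95% ones on tags and cover counting error only. On the infarcted side 5 of the 38 genes were at least 1.5-fold higher at 2 m and 1 was lower, where 16.2% and 7.5% of all genes were. On the non-infarcted side 1 was higher and 7 were lower, where 14.5% and 11.6% of all genes were. The median ratio of the 38 genes was 1.03 on the infarcted and 0.936 on the non-infarcted side, against 1.09 and 1.04 over all genes.

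Cacna1d was lower at 2 m on both sides, by a ratio of 0.533 (interval 0.471 to 0.601) on the infarcted and 0.540 (interval 0.480 to 0.606) on the non-infarcted side. Cacna2d4 was higher on both, with 46 tags at 2 m, against 16 at 1 m LEV, on the infarcted side and 54, against 24, on the non-infarcted side. Its ratios were 3.15 (interval 1.75 to 5.96) and 2.87 (interval 1.74 to 4.85). It had 1.99, 2.09, 2.37, 0.833 and 2.62 CPM on the infarcted side, 2.50, 1.97, 1.82, 1.14 and 3.28 CPM on the non-infarcted side and 2.17 CPM in naive cortex, so the 1 m LEV library is the lowest of its side in both.

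On the infarcted side the other genes past 1.5-fold were the sodium channel genes Scn9a (1.70, interval 1.101 to 2.67), Scn1a (1.59, interval 1.48 to 1.71) and Scn2a (1.53, interval 1.42 to 1.64) and the TARP gene Cacng3 (1.62, interval 1.48 to 1.76), all higher at 2 m. On the non-infarcted side, those lower at 2 m included Cacng8 (0.426, interval 0.373 to 0.486), Scn2b (0.493, interval 0.455 to 0.533), Cacna1a (0.643, interval 0.604 to 0.684), Cacng6 (0.649, interval 0.393 to 1.05) and Cacnb1 (0.660, interval 0.619 to 0.704). Scn2b, a beta subunit that anchors sodium channels, had 91.1, 101, 91.3, 105 and 132 CPM on the infarcted side, 124, 129, 104, 105 and 51.6 CPM on the non-infarcted side and 105 CPM in naive cortex. Its 51.6 CPM at 2 m on the non-infarcted side is the lowest of 11 values by over 1.5-fold, in the library that also stands apart over all genes. Of the 3 calcium channel genes that were higher at 1 m than at 7 d on both sides, Cacna1d was past 1.5-fold lower at 2 m on both sides, Cacnb1 on the non-infarcted side, and Cacna1b, at 0.805 (interval 0.745 to 0.870) and 0.708 (interval 0.657 to 0.763), on neither.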

How the data were processed

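CAGE libraries were made from total RNA of whole cerebral cortex by cap-trapping, per the labels' protocols. The authors deposited CPM, tags per gene scaled to each library total, for 22377 genes in 11 libraries, 1 per group. Per the submitters' processing notes the genome build was GRCm38, and DESeq2 1.20.0, HISAT2 2.0.5 and BWA 0.7.17 were used in steps not given in the sources used here. Every value (100%) is a whole number of tags within 0.01 tag, so tags were recovered for the count test.

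Log2(CPM + 1) values of the 17556 genes with a mean of at least 0.5 CPM were tested with limma 3.58.1 (mean-variance trend, R 4.3.3), adjusted by Benjamini-Hochberg over all of them, and called below an adjusted p of 0.05. A fold on this scale understates the change of low genes. Residual degrees of freedom are 4 for the side test, which has a term for state, 4 for each naive test and 1 for time and LEV, where the spread of other genes counts as a further 35.2 (infarcted), 12.9 (non-infarcted) and 13.9 (side difference). Replicates are not given by the labels, so p-values measure the spread between these libraries and not between mice. A p from 2 pairs leans on other genes.

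Members, gene lists and comparisons were chosen with earlier results of these data known. Genes named with a test are those called or, with fewer than 4 called, the 4 of smallest p; for withdrawal, those past 1.5-fold. Some genes of the set and lists, counted in all totals, are not reported here by name. Gene positions are from GENCODE M21, which holds 22335 of the identifiers. Alternatives were a pseudocount of 0.25, other CPM limits, median centring, TMM, edgeR 4.0.16 on recovered tags, models without state or the second factor, 1 fit over both sides, leaving out each state, and for withdrawal other folds. The tests were run on simulated counts with the same spread setting for every gene and no split of libraries. That run checks the fits, not the calls made here. Tables and plots used Python 3.11.15, pandas 2.3.3, numpy 2.4.6, scipy 1.17.1 and matplotlib 3.10.9.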

Additional observations from a re-analysis of the deposited data

How the results depend on the processing

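Counts here are of the 38 channel genes. For the side, 2 were called, and 1 with no CPM limit, 1 at a mean of at least 5 CPM, 5 with median centring, 4 with TMM, 4 with edgeR and 0 without the state factor (no replicate block). Leaving out 1 state gave 0 to 6: 0 without 7 d, 7 d LEV, 1 m or 1 m LEV, and 6 without 2 m, the state of the non-infarcted library that stands apart. Over all genes the side test called 1079 higher and 128 lower, 918 and 591 with median centring and 946 and 290 with TMM. EdgeR called 1396 and the fit without the state factor 274 in all. With no CPM limit 748 of 22283 genes were called, and at a mean of at least 5 CPM 720 of 12788. Median centring moved the median of all genes from 0.02 to −0.07, so the excess of higher calls depends on the scaling.

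For time on the infarcted side 7 were called, 0 with no CPM limit, where 0% of all genes were called, and 12 in 1 fit over both sides, where 26.5% were; on the non-infarcted side 6, and likewise 0 and 12, with 0% and 26.5% of all genes. For LEV on the infarcted side the 1 call, Scn4b, became 0 with no CPM limit, median centring, TMM, edgeR, without the second factor and in 1 fit over both sides. The tests of side differences called 0, but 3 (time) and 1 (LEV) at a mean of at least 5 CPM, where 2.53% and 0.0782% of the 12788 genes tested were called. At that limit the spread in both tests was taken wholly from other genes. For withdrawal, 6 on the infarcted and 8 on the non-infarcted side passed 1.5-fold, 18 and 18 passed the lower fold that was tried, and 1 and 4 passed 2-fold. Both comparisons with naive cortex and LEV on the non-infarcted side stayed at 0 calls in each alternative run. Without a CPM limit more genes of few tags are tested. In the time and LEV tests the spread of other genes then counts as fewer degrees of freedom. These are 2.37 on the infarcted and 1.88 on the non-infarcted side, against 35.2 and 12.9 in the main fits. For LEV on the infarcted side they are 14.4 with median centring and 11.4 with TMM. Without the second factor they are 3.53, and in 1 fit over both sides 6.13. The cause of the differences between settings was not tested.

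For the genes named with a test, 336 of the alternative values kept their direction and side of the threshold, 39 lost a call, 12 gained one, and none changed direction. The labels give no replicate numbers; the side test is paired by state, through the state factor. With 1 library per group, no spread within a group is known. Depth limits the lowest genes: Cacna2d4 had 16 to 54 tags in the libraries of the withdrawal comparison.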
